A study of Mus musculus with 18 samples.

Results

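The interstitial collagens of types I, III, V and VI were followed through sorted cancer cells of 2 mouse lines. The group is 8 genes, Col1a1, Col1a2, Col3a1, Col5a1, Col5a2, Col6a1, Col6a2 and Col6a3, chosen by symbol with case ignored. All 8 were found among the 24447 symbols that the 2 count tables share. The choice rests on the collagen types and uses no threshold on a measured value.

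The breast cancer line 168FARN and the lung cancer line LLC1, both of mouse, were tagged with GFP and grown as hanging-drop spheroids. Each line had 3 groups of 3 libraries, 18 libraries in all. In the first group the cancer cells were grown alone, in the second they were cocultured with WT fibroblasts carrying the control guide sgNS, and in the third with sgPrrx1 fibroblasts, in which CRISPR/Cas9 had deleted Prrx1, the gene of a mesenchymal transcription factor. 168FARN was mixed with MMTV-CAFs, cancer-associated fibroblasts from MMTV-PyMT mice, and LLC1 with wound healing fibroblasts taken from a dorsal wound on day 10, at 3 fibroblasts per cancer cell. Spheroids were kept for about a week, and per the study's methods the cancer cells were sorted by GFP before RNA extraction. The labels and methods give GFP to the cancer cells, and the study's text once also calls the fibroblasts GFP-expressing, so whether the fibroblasts carried it too is not settled by the sources. The study's mice were of both sexes and a few months old in general, with no age or sex given per fibroblast culture. The sources used here give no purity of the sort and no statement that the 3 libraries of a group came from separate cultures, so p-values measure the spread between libraries, which may be technical. Cancer line and fibroblast type changed together, so their parts in any difference between the lines cannot be told apart.

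Collagen chains wind into triple helices inside the cell and are cut and cross-linked outside it. Type I, made of α1 and α2 chains, and type III, a trimer of one chain, form the banded fibrils of skin, tendon and scar, while type V sits inside fibrils and governs their start and width. Type VI, built from α1, α2 and α3 chains, forms beaded microfilaments around cells. Fibroblasts are the main makers of these chains in connective tissue and in tumour stroma, and Prrx1 is known for its activity in mesenchymal cells.

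The genes lie on 5 chromosomes of GRCm38, the assembly that the build mm10 stands for. Col3a1 (chr1:45311538-45349706) and Col5a2 (chr1:45374331-45503282) are neighbours, as are Col6a2 (chr10:76595756-76623630) and Col6a1 (chr10:76708792-76726044). Col6a3 lies at chr1:90766860-90844001, Col1a1 at chr11:94936224-94953042 and Col1a2 at chr6:4505618-4541543. Col5a1 (chr2:27886381-28039510) is annotated as overlapping Gm13372, and strand was not stated for the counting, so reads from the overlap cannot be assigned between them.

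The 250 bases before the RefSeq start (GRCm38.p6) are shown for 3 genes whose levels took different courses in the cells described below: Col1a2, near 0 in both lines alone, Col3a1, low in 168FARN alone and high in LLC1 alone, and Col6a1, well expressed in both. Each runs 5′ to 3′ on the gene's strand, and capitals mark 3 promoter motifs on either strand, CCAAT (the CAAT box), the letters TATAA of the TATA box, and the GC box core GGGCGG.
Col1a2, plus strand, chr6:4505368-4505617: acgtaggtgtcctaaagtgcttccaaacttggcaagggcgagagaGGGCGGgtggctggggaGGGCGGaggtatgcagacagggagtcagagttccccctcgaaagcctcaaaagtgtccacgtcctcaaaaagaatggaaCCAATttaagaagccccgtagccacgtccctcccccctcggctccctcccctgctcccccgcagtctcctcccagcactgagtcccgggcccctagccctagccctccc
Col3a1, plus strand, chr1:45311288-45311537: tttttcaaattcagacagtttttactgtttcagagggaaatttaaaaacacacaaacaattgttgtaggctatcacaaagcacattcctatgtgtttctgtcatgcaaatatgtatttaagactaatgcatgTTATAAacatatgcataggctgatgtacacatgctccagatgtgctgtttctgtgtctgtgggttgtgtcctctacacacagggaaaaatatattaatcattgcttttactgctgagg
Col6a1, minus strand, chr10:76726045-76726294: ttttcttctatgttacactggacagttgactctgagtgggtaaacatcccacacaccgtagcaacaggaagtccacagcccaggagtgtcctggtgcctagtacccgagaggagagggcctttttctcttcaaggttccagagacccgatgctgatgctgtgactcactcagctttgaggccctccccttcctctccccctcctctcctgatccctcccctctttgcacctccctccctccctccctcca

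The Col1a2 window held CCAAT 109 bases before the start and 2 copies of GGGCGG, the nearer 188 bases before it, and its GC content was 62%. The Col3a1 window had a GC content of 35.2% and held TATAA 117 bases before the start, overlapping a match on the other strand. The Col6a1 window, at 56% GC, held none of these letters. Over all 32851 promoter windows of the same length, CCAAT was found in 33.8%, TATAA in 22.8% and GGGCGG in 32.7%, on either strand. RefSeq windows were at hand for 6 of the 8 genes, 7 windows in all, and the homeodomain core TAATTA, found in 4.84% of all windows, was searched in them without a match. These are matches of letters and not binding sites.

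Depth was high and the libraries of a group were close, with 1 exception. Total counts lay between 48315037 and 68933002 for 168FARN and between 66129117 and 103997557 for LLC1, and in no group did 2 replicates agree within sampling noise. The biological coefficient of variation of 168FARN was 0.0728, and that of LLC1 was 0.228. LLC1 sgPrrx1 replicate 3 stood apart, correlating with its replicates at down to 0.949, and without it the LLC1 coefficient was 0.112. Many LLC1 values below are therefore also given without that library. Prrx1 was expressed by the cancer cells themselves, at 88.2 CPM in 168FARN alone and 206 CPM in LLC1 alone, so it does not check the guide labels. The epithelial markers Epcam and Cdh1 were at or near 0 in both lines, while Krt8 stood at 331 CPM in 168FARN alone and near 0 in LLC1. Levels are given as CPM, counts per 1000000 scaled by TMM, and between genes only as RPKM, which divides CPM by the kilobases of exon.

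In 168FARN all 8 collagens were higher in WT coculture than in cells alone, and all 8 were lower in sgPrrx1 than in WT coculture. Whether RNA of fibroblasts left in the sort entered these levels was not tested. Col1a2 differed most between WT coculture and cells alone. Col1a1 and Col1a2 differed most between sgPrrx1 and WT coculture, and Col6a1 differed least in both contrasts. In WT coculture 8 of 8 members were higher than in cells alone, where 64.1% of all 13540 genes tested were called, 33.4% higher and 30.7% lower. Between sgPrrx1 and WT coculture 8 of 8 were lower, where 60.0% of all genes were called, 33.1% lower and 26.9% higher. The median log2 fold change of the members was 3.85 for WT against alone, beside 0.01 over all genes tested, and -2.51 for sgPrrx1 against WT, beside -0.03. These 2 contrasts share the WT libraries, so a chance error in WT would push them in opposite directions. Tests in this line are edgeR's quasi-likelihood test with Benjamini-Hochberg adjustment over all genes, two-sided, with a threshold of 0.05, and log2 fold changes are given ± SE.

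Of the type I chains, Col1a1 was low and Col1a2 nearly silent in 168FARN alone. Col1a1, the α1 chain, was at 3.82, 3.35 and 4.06 CPM in the 3 libraries alone, at 173, 159 and 150.0 CPM in WT coculture, and at 10.4, 10.1 and 10.6 CPM in sgPrrx1 coculture. The 3 groups did not overlap, and the sgPrrx1 libraries lay far nearer to the cells alone than to WT. Its log2 fold change was 5.43 ± 0.0725 for WT against alone (adjusted p = 1.03e-12) and -3.95 ± 0.0646 for sgPrrx1 against WT (adjusted p = 2.96e-11). Col1a2, the α2 chain, had 5, 8 and 4 counts in the libraries alone, which is at most 0.125 CPM. It reached 153, 152 and 139 CPM with WT CAFs and 14.5, 11.4 and 12.6 CPM with sgPrrx1 CAFs. The change of 10.43 ± 0.136 for WT against alone (adjusted p = 1.03e-12) was the largest of the members and rests on those 17 counts. With sgPrrx1 CAFs the level of Col1a2 was 8.68% of that in WT coculture, a log2 fold change of -3.53 ± 0.0742 (adjusted p = 1.29e-10), and that of Col1a1 was 6.45%.

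Type III followed type I at a smaller fold. Col3a1 was at 7.03, 9.25 and 8.32 CPM alone, 252, 247 and 218 CPM with WT CAFs, and 32.7, 34.1 and 31.4 CPM with sgPrrx1 CAFs, with no overlap between groups. The rise in WT coculture was 4.86 ± 0.0928 (adjusted p = 1.42e-11), and the sgPrrx1 level was 13.7% of WT, a log2 fold change of -2.87 ± 0.0822 (adjusted p = 1.02e-09). Its neighbour Col5a2, the α2 chain of type V, was at 0.288, 0.685 and 0.453 CPM alone, reached 37.8, 38.4 and 35.2 CPM with WT CAFs and stayed at 4.42, 4.65 and 5.06 CPM with sgPrrx1 CAFs. That is a rise of 6.23 ± 0.143 (adjusted p = 5.79e-11), with 12.7% of the WT level in sgPrrx1 coculture. The α1 chain of type V behaved otherwise. Col5a1 was already at 58.7, 55.0 and 54.9 CPM alone, rose to 145, 141 and 137 CPM with WT CAFs and stood at 57.9, 57.5 and 57.7 CPM with sgPrrx1 CAFs. Its rise was 1.33 ± 0.0343 (adjusted p = 1.52e-10). The sgPrrx1 libraries overlapped the cells alone, and that difference did not pass the test (0.04 ± 0.0342, adjusted p = 0.395).

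**Figure D1:**
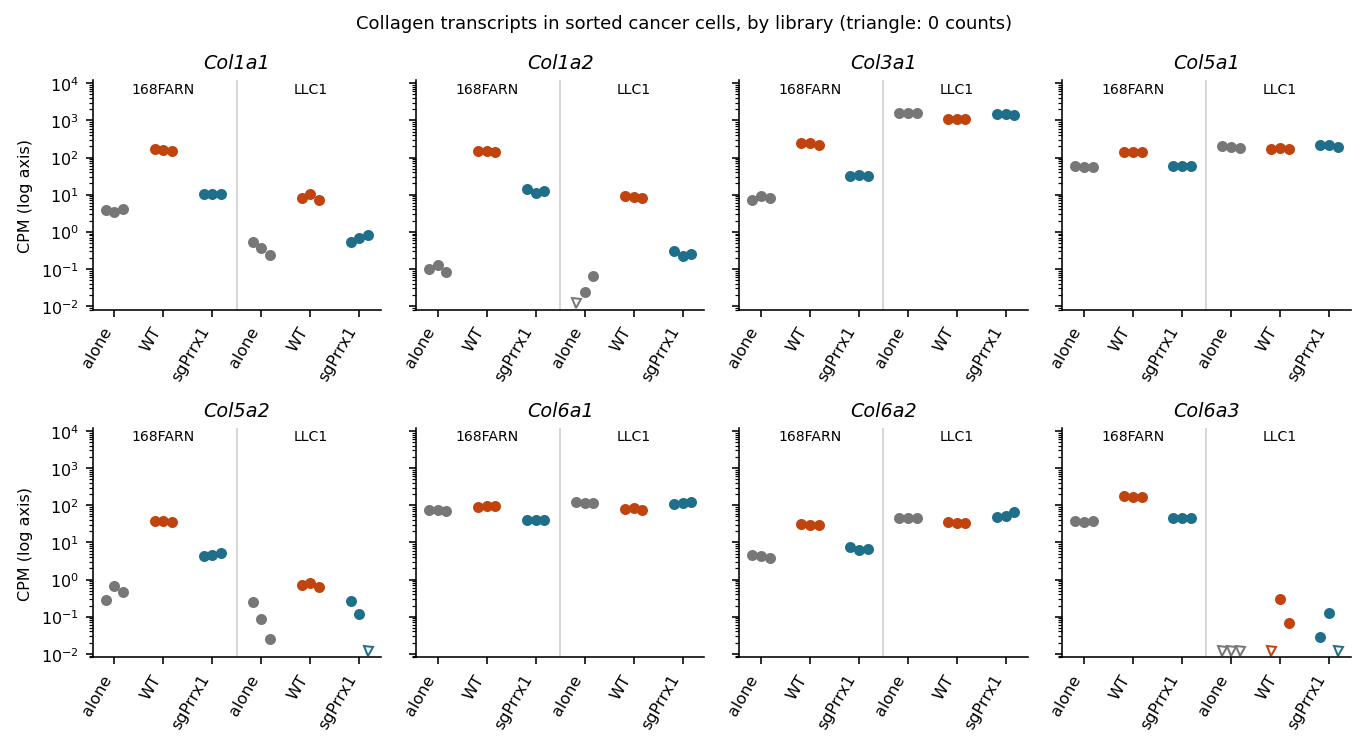
Level of each collagen gene in every library, as CPM on a log axis, for cells alone (grey), WT coculture (orange) and sgPrrx1 coculture (blue) of 168FARN and LLC1, with an open triangle at the foot for 0 counts. In 168FARN every WT library lies above every other library for all 8 genes, where 68.3% of all genes tested do not overlap between WT and alone and 66.2% between sgPrrx1 and WT, whereas in LLC1 Col3a1 lies between 1063 and 1625 CPM in all 9 libraries and is lowest in WT.

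The type VI chains split. Col6a3, whose long α3 chain completes the type VI monomer, rose from 37.0, 36.2 and 37.5 CPM alone to 180, 171 and 165 CPM in WT coculture, and stood at 45.7, 46.8 and 45.0 CPM in sgPrrx1 coculture. Col6a2 rose from 4.68, 4.39 and 3.75 CPM to 32.2, 29.3 and 30.2 CPM, and stood at 7.36, 6.44 and 6.82 CPM with sgPrrx1 CAFs. Their log2 fold changes for WT against alone were 2.22 ± 0.0357 (adjusted p = 4.11e-12) and 2.84 ± 0.0801 (adjusted p = 2.85e-10). Col6a1 was at 73.3, 72.7 and 70.2 CPM alone, 91.3, 93.6 and 94.0 CPM with WT CAFs and 39.7, 39.3 and 39.6 CPM with sgPrrx1 CAFs. Its rise in WT coculture was the smallest of the members, 0.37 ± 0.0279 (adjusted p = 6.41e-07), and its sgPrrx1 libraries lay below the cells alone. For sgPrrx1 against WT the log2 fold changes were -2.16 ± 0.0755 for Col6a2, -1.91 ± 0.0352 for Col6a3 and -1.23 ± 0.0286 for Col6a1, which left 22.5%, 26.6% and 42.5% of the WT level.

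Against cells alone, most of the collagens were still higher in sgPrrx1 coculture, though by less. Of the 8 members 6 were higher and 1 was lower, where 49.7% of all genes were called, 25.7% higher and 24.1% lower. The log2 fold changes ran from 6.90 ± 0.166 for Col1a2 (adjusted p = 1.56e-10) through 3.25 for Col5a2, 1.99 for Col3a1, 1.48 for Col1a1, 0.68 for Col6a2 and 0.31 for Col6a3 to -0.87 ± 0.0285 for Col6a1 (adjusted p = 1.47e-09). Col1a2 was thus 125 times its level alone, and Col6a1 was at 54.8% of it. The call for the 3 smallest of these changes, those of Col6a1, Col6a2 and Col6a3, asks only that the change differ from 0, and it was lost when a size beyond 1 on the log2 scale was required as well.

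**Figure D2:**
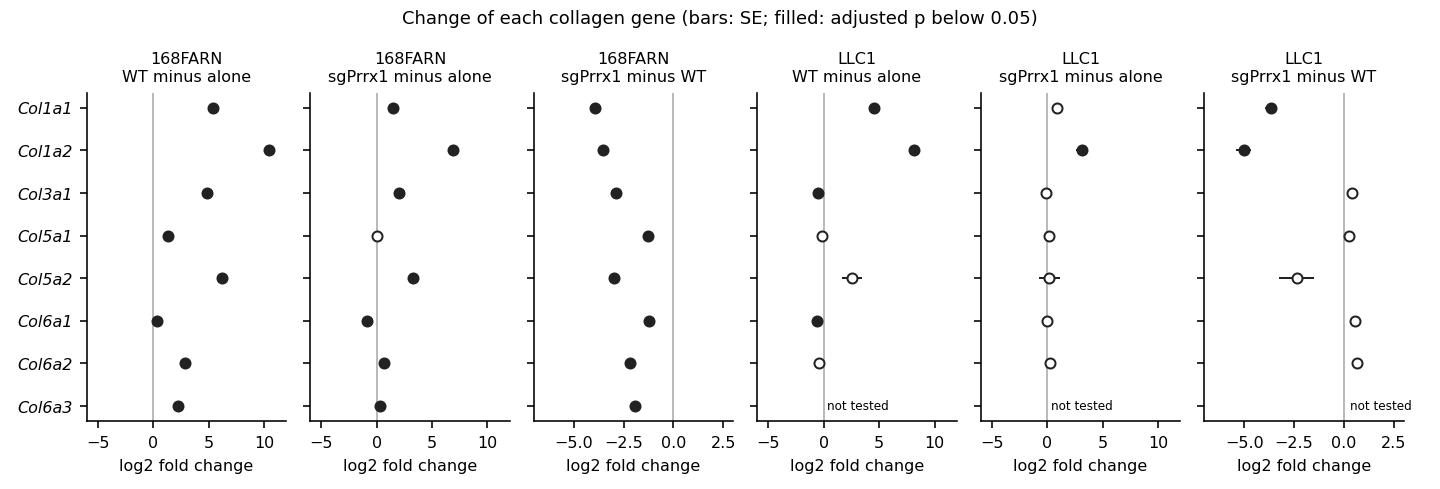
Log2 fold change of each collagen gene in the 3 comparisons of each line, with bars for the SE and filled points for an adjusted p below 0.05 in edgeR's quasi-likelihood test. All 8 points lie above 0 for WT against alone and below 0 for sgPrrx1 against WT in 168FARN, while in LLC1 only Col1a1 and Col1a2 show large changes that pass.

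In LLC1 the 8 collagens did not move together. In WT coculture the type I chains, near 0 in cells alone, were higher, while Col3a1 and Col6a1 were at 68.2% and 66.8% of their level alone. Of the 7 members tested, 2 were higher and 2 were lower in WT coculture than in cells alone, where 8.83% of all 12873 genes tested were called, 4.25% higher and 4.58% lower. Between sgPrrx1 and WT coculture 2 of 7 were lower, both of type I, where 7 genes in all, 0.0544%, were called. The median log2 fold change of the members tested was -0.15 for WT against alone, beside -0.02 over all genes, and 0.27 for sgPrrx1 against WT, beside 0.02. Without sgPrrx1 replicate 3 the share of all genes called rose to 44.2% for WT against alone and to 5.69% for sgPrrx1 against WT, 2.94% higher and 2.75% lower, so counts in this line depend on that library. Col6a3 was too low to be tested over all libraries, with 0 counts in the 3 libraries alone, 0, 22 and 5 in WT coculture and 3, 11 and 0 in sgPrrx1 coculture.

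Type I gave the clearest change in this line. Col1a1 was at 0.524, 0.356 and 0.244 CPM alone, 8.01, 10.6 and 7.20 CPM with WT fibroblasts and 0.528, 0.693 and 0.822 CPM with sgPrrx1 fibroblasts. Its change was 4.51 ± 0.315 for WT against alone (adjusted p = 0.000316) and -3.67 ± 0.299 for sgPrrx1 against WT (adjusted p = 0.00540, or 0.0644 with the replicate number as a block), and the sgPrrx1 level was 7.92% of WT. Col1a2 had 0, 2 and 5 counts alone, 747, 646 and 611 counts in WT coculture and 33, 19 and 15 counts in sgPrrx1 coculture. In CPM the WT libraries were at 9.27, 8.55 and 8.22 and the sgPrrx1 libraries at 0.311, 0.223 and 0.257, which is 3.04% of WT. The fitted changes were 8.14 ± 0.476 for WT against alone (adjusted p = 0.000220), resting on 7 counts, and -5.02 ± 0.370 for sgPrrx1 against WT (adjusted p = 0.00361). Both genes kept their calls in both contrasts without sgPrrx1 replicate 3, at 4.53 and 8.15 for WT against alone and -3.83 and -5.00 for sgPrrx1 against WT.

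Col3a1 took the opposite course at a level far above the rest. The libraries alone held 1625, 1555 and 1557 CPM, those with WT fibroblasts 1087, 1081 and 1063 CPM, and those with sgPrrx1 fibroblasts 1457, 1457 and 1408 CPM. The WT libraries were the lowest of the 9 and the libraries alone the highest, with no overlap. Col3a1 fell by 0.55 ± 0.0743 on the log2 scale in WT coculture (adjusted p = 0.00549). For sgPrrx1 against WT the difference was 0.42 ± 0.0742, which did not pass over all libraries (adjusted p = 0.121) and passed without sgPrrx1 replicate 3, at 0.43 ± 0.0388 (adjusted p = 0.00303).

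Among the type V and VI chains of LLC1, Col6a1 fell in WT coculture as Col3a1 did, and Col5a1 and Col6a2 passed no test over all libraries. Col6a1 was at 123, 115 and 117 CPM alone, 80.4, 82.1 and 74.6 CPM with WT fibroblasts and 111, 115 and 126 CPM with sgPrrx1 fibroblasts. It fell by 0.58 ± 0.0875 on the log2 scale in WT coculture (adjusted p = 0.00803, or 0.0514 without the library of cells alone replicate 1), and the difference of 0.57 ± 0.0875 for sgPrrx1 against WT did not pass (adjusted p = 0.101). Col6a2 stood at 46.8, 45.1 and 45.8 CPM in cells alone, 35.6, 33.6 and 33.8 CPM in WT and 48.7, 50.0 and 65.5 CPM in sgPrrx1 coculture, where the highest value is that of replicate 3. Neither of its differences that involve WT passed over all libraries (-0.42 with adjusted p = 0.0727 against alone, 0.67 with adjusted p = 0.121 for sgPrrx1 against WT). Col5a1 held 204, 193 and 185 CPM in cells alone, 175, 183 and 168 CPM in WT and 216, 221 and 198 CPM in sgPrrx1 coculture, and its differences did not pass (-0.15, adjusted p = 0.347, and 0.27, adjusted p = 0.316). Without sgPrrx1 replicate 3, 6 of 8 members tested passed between sgPrrx1 and WT coculture, namely Col1a1 and Col1a2 lower and Col3a1, Col5a1, Col6a1 and Col6a2 higher at 0.43, 0.31, 0.51 and 0.52. Likewise 6 of 8 passed between WT and alone without it, Col5a2 joining those higher at 2.57 and Col6a2 those lower at -0.41. Over all genes, 5.69% were called without that library between sgPrrx1 and WT coculture and 44.2% between WT and alone.

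Col5a2 was scarce in LLC1, at 20, 7 and 2 counts alone, 57, 61 and 47 counts in WT coculture and 28, 10 and 0 counts in sgPrrx1 coculture. The WT libraries were the highest and did not overlap the others, but the spread was wide and the change of 2.55 ± 0.894 did not pass (adjusted p = 0.1198). Against cells alone, LLC1 with sgPrrx1 fibroblasts had 1 of 7 members called, Col1a2 at 3.11 ± 0.538 (adjusted p = 0.0230), where 4.32% of all genes were called, 2.01% higher and 2.31% lower, and Col1a1 at 0.84 ± 0.307 did not pass (adjusted p = 0.150, or 0.149 at 0.70 without sgPrrx1 replicate 3). With the replicate number as a block Col1a2 did not pass (adjusted p = 0.0513), and same-numbered libraries of these 2 groups deviated together, at r of 0.131, 0.249 and 0.419. Replicates 1 and 2 did so across numbers too, at 0.182 and 0.232, so a pairing by number is not shown. Without sgPrrx1 replicate 3 Col1a2 was called again at 3.15, beside 26.7% of all genes. That call was lost without alone replicate 2, without any 1 WT library and without sgPrrx1 replicate 1 or 2, with adjusted p from 0.0529 to 0.124 and the log2 fold change between 2.96 and 3.23.

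The course of the collagens differed between the lines beyond the spread of the libraries. In a joint fit of the 18 libraries over 14369 genes, the change from cells alone to WT coculture differed between 168FARN and LLC1 for 7 of 8 members, in each case higher in 168FARN, where 29.4% of all genes were called, 15.8% higher and 13.7% lower. The difference, 168FARN minus LLC1, was largest for Col3a1, at 5.41 ± 0.130 on the log2 scale (adjusted p = 1.75e-12), which rose in one line and fell in the other. It was 3.25 ± 0.146 for Col6a2 and 3.70 ± 0.815 for Col5a2, and for type I it was 2.30 ± 0.684 for Col1a2 (adjusted p = 0.0193) and 0.91 ± 0.284 for Col1a1 (adjusted p = 0.0247). The differences for the low genes leaned on single libraries. For Col1a1 the call was lost without LLC1 alone replicate 1 (0.59, adjusted p = 0.145), LLC1 WT replicate 1 or 3, 168FARN alone replicate 2 or 168FARN WT replicate 1, for Col1a2 without LLC1 alone replicate 3 (1.17, adjusted p = 0.590), and for Col5a2 without LLC1 alone replicate 1 (2.62, adjusted p = 0.0901). The change from WT to sgPrrx1 coculture differed for 5 of 8, where 19.3% of all genes were called, 8.25% higher and 11.0% lower. Col3a1, Col5a1, Col6a1 and Col6a2 were lower in 168FARN by -3.27, -1.54, -1.79 and -2.81 relative to LLC1, and Col1a2 was higher by 1.50 ± 0.270 (adjusted p = 0.00117), its fall being the larger in LLC1. For Col1a1 the difference was -0.25 ± 0.265 (adjusted p = 0.586). The same members passed in both contrasts without LLC1 sgPrrx1 replicate 3.

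**Figure D3:**
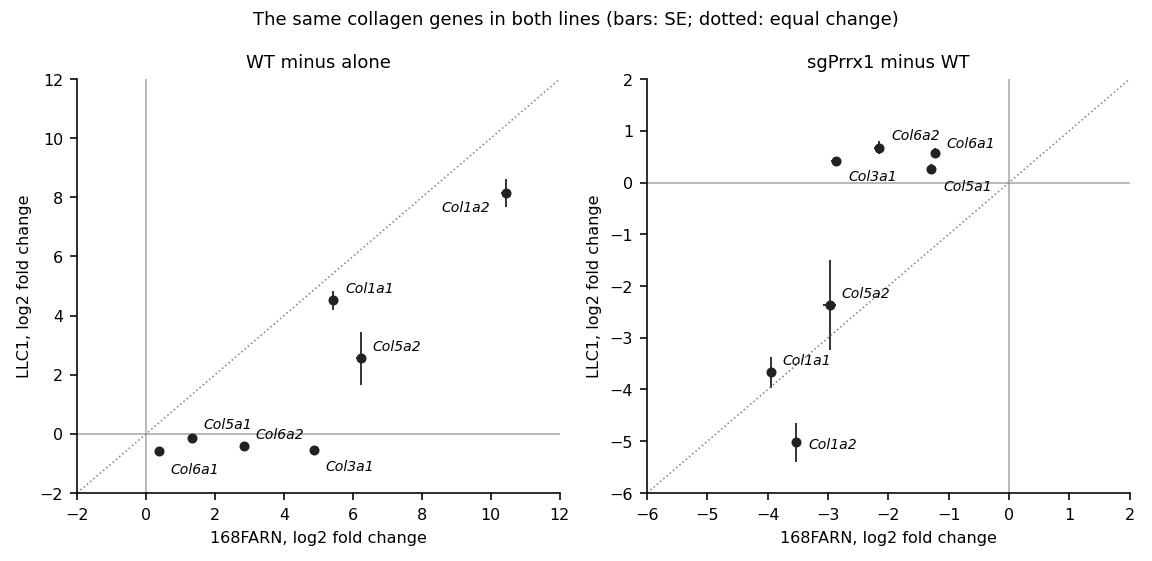
Log2 fold change of each collagen gene tested in both lines, 168FARN on the horizontal axis and LLC1 on the vertical axis, for WT minus alone (left) and sgPrrx1 minus WT (right), with bars for the SE and a dotted line where both lines change equally. Col1a1 and Col1a2 change far from 0 in the same direction in both lines, while Col3a1, Col5a1, Col6a1 and Col6a2 lie on opposite sides of 0.

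Per length, the mix of chains shifted in 168FARN from type VI to types I and III, whereas in LLC1 Col3a1 led in every group. The summed RPKM of the 8 genes was 30.3 ± 0.529 (SD, n = 3) in 168FARN alone, 162 ± 7.57 in WT coculture and 32.3 ± 0.349 in sgPrrx1 coculture. In cells alone Col6a1 led with 57.8% of the summed RPKM, ahead of Col5a1 at 21.8% and Col6a3 at 10.8%. With WT CAFs Col3a1 led with 26.5%, followed by Col1a1 and Col1a2 at 16.7% and 16.5%, whose ranges overlapped. With sgPrrx1 CAFs Col6a1 and Col5a1 led again and Col3a1 came next, at 29.8%, 21.1% and 18.2%. The sum was thus near that of cells alone, while types I and III held 30.8% of it against 6.99% in cells alone and 59.7% in WT coculture. In LLC1 the sum was 342 ± 9.24 alone, 242 ± 4.18 in WT and 321 ± 3.27 in sgPrrx1 coculture, and Col3a1 made up 82.7%, 79.8% and 80.5% of it. Type I made up 0.0200%, 1.25% and 0.0506% of the LLC1 sum. Without sgPrrx1 replicate 3 the sgPrrx1 sum was 323, with 80.9% from Col3a1 and 0.0468% from type I.

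**Figure D4:**
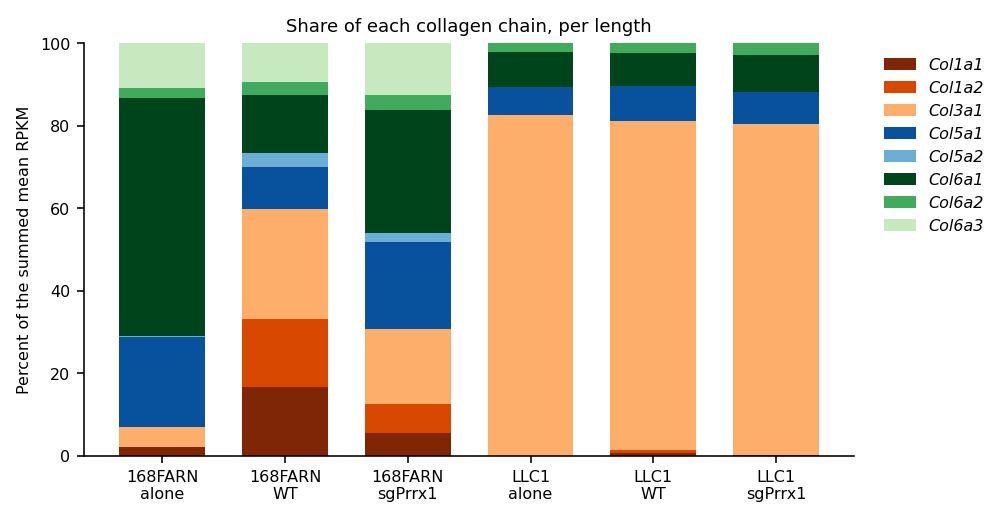
Share of each chain in the summed mean RPKM of the 8 collagens, in percent, for the 3 groups of each line. Col6a1 fills 57.8% of the bar of 168FARN alone and 14.0% of the WT bar, where the 2 type I chains and Col3a1 take over, whereas Col3a1 fills 79.8% to 82.7% of every LLC1 bar.

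The ratio of the 2 type I genes is given for RNA only and was not compared with the ratio of the chains in the protein. In WT coculture Col1a1 over Col1a2 was 1.01 ± 0.0404 in RPKM (SD, n = 3) in 168FARN and 0.926 ± 0.198 in LLC1. In sgPrrx1 coculture it was 0.759 ± 0.0835 in 168FARN and 2.49 ± 0.786 in LLC1, so the ratio lay on different sides of 1, and in LLC1 it rests on 15 to 33 Col1a2 counts per library and was 1.58 and 2.90 in the replicates other than sgPrrx1 replicate 3. In 168FARN alone Col1a1 exceeded Col1a2 in RPKM by 35.3 ± 10.5 times. For type V, Col5a1 over Col5a2 was 106 ± 49.3 in 168FARN alone, 2.96 ± 0.0904 in WT and 9.59 ± 0.657 in sgPrrx1 coculture, and in LLC1 WT it was 192 ± 15.2. For type VI, Col6a1 over Col6a2 was 24.8 ± 2.31, 4.45 ± 0.273 and 8.42 ± 0.523 in the 3 groups of 168FARN, and between 3.17 and 3.76 in LLC1.

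Across the 9 libraries of 168FARN the members were correlated to very different degrees. Pearson's r of log2 CPM was positive in 28 of 28 pairs, from 0.12 between Col1a2 and Col6a1 to 0.995 between Col1a1 and Col6a2. In LLC1, 9 of the 21 pairs were positive and 12 negative, from -0.99 between Col1a2 and Col3a1 to 0.95 between Col3a1 and Col6a1, and without sgPrrx1 replicate 3 again 9 were positive and 12 negative. These values describe libraries in 3 groups and mostly restate the group means. The genes most like Col1a1 in 168FARN were CYR61, a matricellular protein gene, at r = 0.999, then Fbln2, Aldh18a1, Ptgfrn and Slc44a2, among 10868 genes. In LLC1 they were Bgn, which encodes the matrix proteoglycan biglycan, at 0.984, then Pdpn, Zfp934 and FAM45A, among 10997 genes.

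Markers of fibroblasts moved in part with the collagens, and whether RNA of fibroblasts left in the sort entered the collagen counts was not tested. The list had 14 genes, of which 7 had more than 3 counts in every library of 168FARN alone and 9 in every library of LLC1 alone, and Dcn, Dpt, Lum and Fap also stand in other lists used here. In bulk RNA a change in the number of cells that make a transcript cannot be told apart from a change per cell. In 168FARN the summed CPM of the fibroblast markers ran from 251 to 257 alone, 458 to 459 in WT and 346 to 354 in sgPrrx1 coculture, and 10 could be tested. Of those, 7 were higher and 1 lower in WT than alone, where 64.1% of all genes were called and 33.4% were higher, and 1 was higher and 8 lower in sgPrrx1 than WT, where 60.0% were called and 33.1% were lower. Dcn, the collagen-binding proteoglycan decorin, was at 0.275 ± 0.0769 CPM alone (SD, n = 3), 92.8 ± 3.14 in WT and 43.3 ± 1.27 in sgPrrx1 coculture. Thy1 had 0 counts in the 6 libraries alone and with sgPrrx1 CAFs and 27 to 34 counts in the WT libraries, and Lum had at most 12 counts in any library of this line. Pdgfra and Pdgfrb, receptors for platelet-derived growth factor, were already expressed alone, at 69.3 ± 0.534 and 43.0 ± 1.18 CPM. Pdgfra rose to 131 ± 2.03 CPM in WT and was at 97.5 ± 0.957 CPM in sgPrrx1 coculture, and Pdgfrb was at 40.6 ± 1.24 and 26.7 ± 1.01 CPM. Fbln1, the gene of the matrix protein fibulin-1, had 0 counts alone, 10.6 ± 0.551 CPM in WT and 0.734 ± 0.262 CPM in sgPrrx1 coculture. Set against WT coculture, the markers ranged widely in sgPrrx1 coculture. Thy1 was at 0, Fbln1 at 6.92%, Dpt at 18.4%, Islr at 34.5%, Dcn at 46.7%, Pdgfrb at 65.7%, Pdgfra at 74.2%, Prrx1 at 87.2%, Mfap5 at 106% and Twist2 at 143% of the WT level, where Col1a1 was at 6.45%. Of these, Prrx1, Twist2 and Mfap5 were at 88.2, 41.5 and 10.6 CPM in cells alone, and Pdgfra and Pdgfrb were expressed there too. Their percentages therefore include the level of cells alone and do not measure RNA of fibroblasts. Islr was low throughout, at 0.705 CPM alone and 0.931 CPM in WT. Thy1, Fbln1, Dpt and Dcn, at or near 0 alone, were at 0 to 46.7% of WT.

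In LLC1 the fibroblast marker sum overlapped between the groups, at 412 to 462, 455 to 465 and 398 to 481 CPM. Most of it came from genes that LLC1 alone already expressed, Prrx1, Pdgfra, Fbln1 and Twist2, at 206, 78.3, 75.4 and 55.8 CPM there. The sum therefore does not measure RNA of fibroblasts. Without sgPrrx1 replicate 3 the sgPrrx1 libraries, at 476 and 481 CPM, lay above the others. Of 9 markers tested 1 was higher and 2 lower in WT than alone, beside 8.83% of all genes called, or 3 and 3 with that library left out, beside 44.2%. Dcn was at 2.85 ± 0.875 CPM alone (SD, n = 3), 30.1 ± 3.03 in WT and 21.4 ± 0.847 in sgPrrx1 coculture, so 71.4% of the WT level was kept where type I kept 3.04% to 7.92%. Fbln1 was at 75.4 ± 4.66 CPM alone, 55.8 ± 2.34 in WT and 67.1 ± 5.17 in sgPrrx1 coculture, which is 120% of WT. Of the other markers tested, Dpt was at 219%, Islr at 178%, Lum at 141% and Pdgfrb at 126% of WT. Twist2 was at 119%, Pdgfra at 99.2% and Prrx1 at 81.3% of WT. All of them were detected in cells alone, so these percentages include the level of cells alone. None of these differences between sgPrrx1 and WT passed over all libraries. Thy1 never exceeded 6 counts in a library. Lum was at 2.88 ± 0.238, 1.74 ± 0.441 and 2.45 ± 0.498 CPM, and Pdgfrb at 5.59, 2.38 and 3.01 CPM, both lowest in WT. The markers of mural cells summed to 30.5 to 34.0 CPM in 168FARN alone, 44.1 to 45.9 in WT and 32.8 to 33.9 in sgPrrx1 coculture, and to 29.6 to 34.1, 24.0 to 27.6 and 25.4 to 27.5 CPM in LLC1. Those of endothelial cells summed to 3.58 to 4.06, 8.19 to 9.05 and 7.26 to 8.29 CPM in 168FARN and to 0.175 to 0.516, 5.62 to 6.73 and 0.428 to 0.552 CPM in LLC1. Those of immune cells summed to 26.8 to 28.8, 19.1 to 22.5 and 19.0 to 20.9 CPM in 168FARN and to 16.0 to 17.4, 36.3 to 38.0 and 36.5 to 64.5 CPM in LLC1. Single genes carried much of the differences between groups, so the sums do not measure cell types. In 168FARN Acta2 went from 0.328 CPM alone to 9.18 in WT, and Cdh5 from 0.277 to 5.94, while Vwf was lower, at 3.10 and 2.07. In LLC1 Kdr went from 0.0123 CPM alone to 6.04 in WT, and Cd68 from 16.2 to 36.6. The part of these cell types in the collagen changes was not tested.

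**Figure D5:**
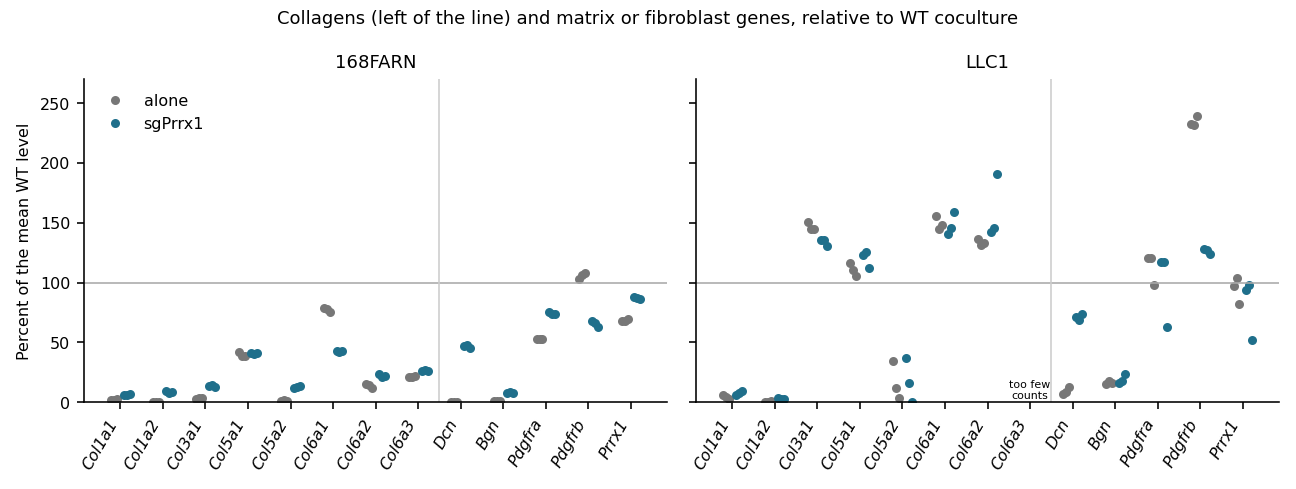
Level of the 8 collagens, left of the grey vertical line, and of Dcn, Bgn, Pdgfra, Pdgfrb and Prrx1, in each library of cells alone (grey) and sgPrrx1 coculture (blue), as percent of the mean WT level of the line. In sgPrrx1 coculture the type I chains lie below 10% in both lines, as does Bgn in 168FARN at 7.93% on average, while Bgn in LLC1 lies at 19.3% and Dcn at 46.7% in 168FARN and 71.4% in LLC1.

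The other collagens moved in both directions, and the counts for this and the next lists stand beside the shares over all genes. In 168FARN 64.1% of all genes were called for WT against alone and 60.0% for sgPrrx1 against WT, and in LLC1 8.83% for WT against alone, or 44.2% without sgPrrx1 replicate 3. Of 36 other collagen genes 20 were tested in 168FARN, of which 8 were higher and 6 lower in WT than alone, with a median log2 fold change of 0.16, and 13 were lower in sgPrrx1 than WT. Col7a1, the anchoring fibril collagen, rose by 1.31 ± 0.0502 in WT coculture, Col12a1, a fibril-associated collagen, rose by 1.11 ± 0.123, and Col4a5, a basement membrane chain, fell by 1.16 ± 0.0553 on the log2 scale. In sgPrrx1 against WT, Col12a1 fell by 3.10 and Col7a1 by 0.94. In LLC1 18 were tested and 4 were higher and 5 lower in WT than alone, Col7a1 and Col12a1 again among the former at 2.33 ± 0.176 and 1.31 ± 0.302, and Col2a1 among the latter at -0.80 ± 0.176. With sgPrrx1 replicate 3 left out, 4 were higher and 8 lower.

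The next list holds genes that fold, modify and cross-link collagen chains. In 168FARN, of 27 biosynthesis genes tested 17 were higher and 7 lower in WT than alone, and 2 were higher and 23 lower in sgPrrx1 than WT, with medians of 0.38 and -0.59. Serpinh1, the collagen chaperone, was at 0.488 ± 0.219 CPM alone (SD, n = 3), 51.8 ± 1.79 in WT and 7.67 ± 0.335 in sgPrrx1 coculture. Lox, which oxidises lysines for cross-links, went from 0.216 ± 0.107 to 52.7 ± 1.47 and 5.04 ± 0.568 CPM, and its relative Loxl2 from 0.0721 ± 0.0469 to 18.4 ± 0.159 and 1.21 ± 0.145 CPM. In LLC1 29 were tested, and 4 were higher and 3 lower in WT than alone, with a median of -0.12. Among them Pcolce2, an enhancer of propeptide removal, rose by 0.59 ± 0.143. The other genes called higher had fewer than 100 counts on average and are named after their values were seen. Lox went from 0.0668 ± 0.0287 CPM alone to 1.43 ± 0.0628 in WT coculture (adjusted p = 0.0119), Loxl2 from 0.0872 ± 0.0415 to 1.25 ± 0.367 CPM (adjusted p = 0.00652), and Adamts2, a procollagen peptidase gene, from 0 counts to 20 to 28 counts per library. In the other direction Loxl3 and P4ha3 fell by 0.70 and 0.62 on the log2 scale. The counts without sgPrrx1 replicate 3 were 6 higher and 10 lower.

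Among genes of proteins that bind fibrils, 8 of 11 tested in 168FARN were higher and 2 lower in WT than alone, with a median log2 fold change of 3.95. In sgPrrx1 against WT 9 were lower and 1, Tnxb, was higher, with a median of -1.10. Postn, which encodes periostin, had 0 counts alone, 22.1 ± 0.891 CPM in WT and 0.0223 ± 0.0386 CPM in sgPrrx1 coculture (SD, n = 3). Bgn was at 2.61 ± 0.208, 180 ± 10.6 and 14.3 ± 0.857 CPM in 168FARN and at 2.03 ± 0.113, 12.4 ± 0.836 and 2.39 ± 0.444 CPM in LLC1. Together with Dcn it was called higher in WT than alone in LLC1, where 2 of 13 passed (10 without sgPrrx1 replicate 3, 6 higher and 4 lower), and it was the 1 list gene called between sgPrrx1 and WT there over all libraries (-2.38 ± 0.151, adjusted p = 0.00220 in edgeR's quasi-likelihood test). With sgPrrx1 replicate 3 left out, the lists of other collagens, biosynthesis, fibrils, receptors and breakdown had 5, 6, 4, 3 and 4 genes called in that contrast, beside 5.69% of all genes.

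Receptors and genes of collagen breakdown were followed last. In 168FARN 6 of 11 receptors tested were higher and 3 lower in WT than alone, and 8 were lower in sgPrrx1 than WT. Itgb1, the shared β1 chain of the collagen-binding integrins, rose by 0.44 ± 0.0275 and fell by 0.62 in these contrasts, while Mrc2, an endocytic collagen receptor, fell in both, by 0.31 and 0.70. In LLC1 3 of 10 were lower in WT than alone, Mrc2 by 0.85 ± 0.0800, Itga10 by 1.04 ± 0.145 and the collagen receptor kinase Ddr1 by 0.47 ± 0.0800 on the log2 scale. Leaving out sgPrrx1 replicate 3 gave 2 higher and 7 lower. Of the breakdown genes 7 of 10 were higher and 2 lower in WT than alone in 168FARN, and 1 was higher and 7 lower in sgPrrx1 than WT. In LLC1 2 of 8 were higher and 1 lower in WT than alone, or 3 and 2 of 9 without sgPrrx1 replicate 3. The collagenase Mmp13 rose by 3.15 ± 0.0417 in 168FARN and fell by 1.34 ± 0.177 in LLC1 with WT fibroblasts, and Timp3, a metalloproteinase inhibitor, went from 0.0104 ± 0.0180 CPM alone to 34.5 ± 1.09 in WT and 5.19 ± 0.0752 in sgPrrx1 coculture of 168FARN (SD, n = 3).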

How the data were processed

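The authors trimmed paired reads with Trimmomatic, aligned them to mm10 with STAR and counted reads per gene symbol with HTSeq, and deposited raw counts, 1 table per line. Strandedness and annotation are not given in the sources used here. The methods name a ComBat-seq batch correction after the sentence on human samples, and whether it was applied to these tables is not stated. Groups and replicate numbers came from sample titles. Counts were fitted in R 4.3.3 with edgeR 4.0.16 (filterByExpr, TMM, quasi-likelihood test, two-sided, Benjamini-Hochberg over all genes tested, threshold 0.05), with the 9 libraries of a line in 1 model. That left 13540 genes in 168FARN and 12873 in LLC1. Differences between lines were interaction terms of a joint fit of 18 libraries. RPKM used the union of annotated exons. Each table had 27 symbols turned into dates, and 72 genes (168FARN) and 61 genes (LLC1) had one same count in all libraries. 95.9% of symbols matched RefSeq. Alternatives were DESeq2 1.42.0, limma 3.58.1 voom with sample weights, other scalings and filters, a threshold of 1 on the log2 scale, only the 2 groups compared, the replicate number as a block, and each library left out.

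The members and lists were chosen with earlier results of these data known. All members are named, and from the lists of other collagens, biosynthesis, fibril-associated matrix, receptors, breakdown and fibroblast markers at most 3 genes per comparison with the largest change among those called, with a mean of at least 100 counts and no overlap between groups, besides defining markers, Prrx1 and the 5 genes most like Col1a1. In LLC1, 1 of those 5 is not reported here. Lists of epithelial, keratinocyte, endothelial, mural and immune markers checked the sorted cells. Some single genes of these lists and of the fibroblast markers are named after their values were seen. The keratinocyte markers summed to between 0.933 and 2.69 CPM in every library. Epithelial markers summed to 333 to 437 CPM in 168FARN and 0.770 to 2.66 CPM in LLC1.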

Additional observations from a re-analysis of the deposited data

Results flagged for a closer look

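The effect of coculture differed between 168FARN and LLC1 in a test of the difference itself, and those results are listed with their log2 differences, 168FARN minus LLC1. For WT coculture against cells alone they were 5.41 for Col3a1, 1.47 for Col5a1, 3.70 for Col5a2, 0.95 for Col6a1, 3.25 for Col6a2, 0.91 for Col1a1 and 2.30 for Col1a2. For sgPrrx1 against WT coculture they were -3.27 for Col3a1, -1.54 for Col5a1, -1.79 for Col6a1, -2.81 for Col6a2 and 1.50 for Col1a2. The adjusted p-values of edgeR's quasi-likelihood test ran from 1.75e-12 for Col3a1 to 0.0247 for Col1a1 in the first contrast. The lines were cocultured with different fibroblasts, and the 2 contrasts share the WT libraries.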

How the results depend on the processing

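In 168FARN the 8, 8 and 7 members called for WT against alone, sgPrrx1 against WT and sgPrrx1 against alone were the counts with every single library left out, and 4 rather than 7 were called in the last contrast when a log2 change beyond 1 was required as well (7.25% of all genes). For WT against alone Col6a1, at 0.37, also lost its call with that requirement (10.2% of all genes). In LLC1, WT against alone gave 4 members, 2 with that requirement (2.56% of all genes, against 8.83%), 7 with limma voom (58.6%) and 3 to 6 with 1 library left out. LLC1 sgPrrx1 against WT gave 2 members (0.0544% of all genes), 5 with DESeq2 (3.89%), 7 with limma voom (36.4%), 1 with at least 10 counts in every library (0.0169%) and 2 to 6 with 1 library left out, the 6 without sgPrrx1 replicate 3. LLC1 sgPrrx1 against alone gave 1 member (4.32%), 3 with limma voom (48.03%) and 0 to 1 with 1 library left out. It gave 0 with at least 10 counts in every library, which removes Col1a2 and calls 588 genes in all, 2939 at an unadjusted p under 0.05, and 0 with only the 2 groups in the fit, where Col1a2 had an adjusted p of 0.168 in edgeR's quasi-likelihood test and where 27 genes were called in all and 2020 had an unadjusted p under 0.05. Members differing between lines numbered 5 to 7 and 5 with 1 library left out. The cause of these moves was not tested otherwise. Over all genes, the LLC1 counts with 1 library left out ran from 273 to 5779, 52 to 3495 and 3 to 745 for WT against alone, sgPrrx1 against alone and sgPrrx1 against WT.

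With the replicate number as a block, LLC1 sgPrrx1 against alone gave 0 members and LLC1 sgPrrx1 against WT gave 1, and the calls lost were those of Col1a2 and Col1a1. There 381 and 2 genes were called in all, with 3478 at an unadjusted p under 0.05 in the first. Same-numbered libraries of LLC1 alone and sgPrrx1 coculture deviated together in every pair, so that the blocked value stands beside that call. Replicates 1 and 2 of these groups also did so across numbers, at r of 0.182 and 0.232, and the pairs across numbers with replicate 3 ran from -0.384 to -0.185. With the outlying sgPrrx1 replicate 3 among them, these values cannot show a pairing by number. In the other contrasts some pair was at or below 0.1, and over all contrasts the correlations averaged 0.15 in LLC1, against -0.07 for libraries with different numbers, and -0.01 in 168FARN. The labels tie the numbers to no shared culture or day.

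Changes of direction were seen in low or unchanged values. For LLC1 sgPrrx1 against alone, Col5a2 ran from -0.87 to 1.26 and Col6a1 from -0.0555 to 0.0261 with 1 library left out. For the difference between lines in sgPrrx1 against WT, Col5a2 ran from -1.10 to 0.40 and Col6a3 from -2.66 to 0.70, and for WT against alone Col6a3 was 0.68 with limma voom against -3.85. In LLC1 Col6a3 had at most 22 counts in any library, and Col5a2 and Col1a2 had at most 20 and 5 in cells alone.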
